A study of Mus musculus with 12 samples.

Results

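The mitochondrial ribosomal protein genes of the mouse were followed in splenic B lymphocytes. They were taken as every gene in the deposited table whose symbol is Mrpl or Mrps followed by a number, with or without a final letter. There were 78 such genes of 24982, of which 49 carried an Mrpl symbol and 29 an Mrps symbol. All 78 were above 0 in all 12 libraries, and all 78 passed the filter on low values in every comparison. The 12 libraries were made from the polyadenylated RNA of B lymphocytes from mouse spleen, at an age of 6 weeks. WT mice, Eμ-Myc mice and Eμ-Myc; PRPS2 KO mice gave 4 libraries each, labelled as biological replicates 1 to 4. Eμ-Myc mice carry a Myc transgene under the immunoglobulin heavy chain enhancer, which drives it in the B lineage and leads to B-cell lymphoma. The Eμ-Myc; PRPS2 KO mice carry that transgene and in addition lack PRPS2, an enzyme that makes phosphoribosyl pyrophosphate, the sugar phosphate on which nucleotides are built. Loss of PRPS2 without the transgene was not analysed here, so the knockout could be compared only within the Myc background or across 2 genetic changes.

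The mitochondrial ribosome is built inside the mitochondrion from RNA encoded in mitochondrial DNA and from proteins that are encoded in the nucleus, made in the cytosol and imported. It translates only the few mRNAs of mitochondrial DNA, all of which encode subunits of the respiratory chain and of ATP synthase. Its large subunit joins amino acids and its small subunit reads the mRNA. Many of its proteins descend from bacterial ribosomal proteins and others are specific to mitochondria. Myc is known as an activator of ribosome and mitochondrial gene expression, and binds DNA at E-boxes, whose core letters are CACGTG.

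Because the genes were compared between groups that differ in Myc, the promoters of the genes with the most and the least difference are shown first. They come from RefSeq on GRCm38.p6 and hold the 250 bases before and the 50 bases after an annotated start. Mrpl12 and Mrpl42 had the largest increases in Eμ-Myc against WT, and Mrpl24 and Mrpl33 the smallest. The start used for Mrpl24 lies inside the gene span given below, chr3:87918131-87923450, and not at its first base. Capitals mark matches, on either strand, to any of 4 motifs: the E-box CACGTG, the ETS motif CCGGAAG, the NRF1 motif GCGCATGC and the YY1 motif AAGATGG. All are written 5′ to 3′ on the strand of the gene.
Mrpl12, chr11:120484387-120484686, plus strand: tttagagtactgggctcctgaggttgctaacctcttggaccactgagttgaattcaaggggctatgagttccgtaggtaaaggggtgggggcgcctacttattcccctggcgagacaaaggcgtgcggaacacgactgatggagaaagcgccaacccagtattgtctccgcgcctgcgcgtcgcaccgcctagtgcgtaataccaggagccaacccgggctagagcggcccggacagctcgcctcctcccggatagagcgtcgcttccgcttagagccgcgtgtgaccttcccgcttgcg
Mrpl42, chr10:95501900-95502199, minus strand: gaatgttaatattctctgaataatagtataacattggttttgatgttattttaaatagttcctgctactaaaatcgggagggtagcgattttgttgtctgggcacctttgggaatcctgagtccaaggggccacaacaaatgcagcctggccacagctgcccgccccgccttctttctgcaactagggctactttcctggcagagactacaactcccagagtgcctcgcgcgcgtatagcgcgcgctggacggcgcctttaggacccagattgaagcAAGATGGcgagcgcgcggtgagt
Mrpl24, chr3:87919294-87919593, plus strand: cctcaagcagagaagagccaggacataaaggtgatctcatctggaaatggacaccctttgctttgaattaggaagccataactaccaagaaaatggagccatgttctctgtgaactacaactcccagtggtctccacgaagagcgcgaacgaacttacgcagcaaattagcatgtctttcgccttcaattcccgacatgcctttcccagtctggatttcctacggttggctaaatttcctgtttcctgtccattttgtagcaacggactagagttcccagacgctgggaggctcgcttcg
Mrpl33, chr5:31613701-31614000, plus strand: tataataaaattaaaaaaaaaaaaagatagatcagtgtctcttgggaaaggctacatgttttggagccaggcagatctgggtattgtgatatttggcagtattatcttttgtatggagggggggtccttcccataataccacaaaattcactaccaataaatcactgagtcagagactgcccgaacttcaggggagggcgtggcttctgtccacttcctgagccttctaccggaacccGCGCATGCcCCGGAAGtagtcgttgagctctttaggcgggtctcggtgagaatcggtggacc

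None of the 4 windows held an E-box. The Mrpl12 and Mrpl24 windows held none of the 4 motifs. The Mrpl42 window held a YY1 motif that began 28 bases downstream, counting the start itself as base 1. In the Mrpl33 window an NRF1 motif began 12 bases upstream of the start, and an ETS motif began 3 bases upstream and ran across the start. A match is a description of letters and no evidence of a bound factor, and a window without a match says only that these letters were not in it.

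Promoter windows were available for 69 of the 78 genes, as 75 windows. The E-box was in 9.33% of these windows and in 9.99% of the 12529 windows of all genes tested in Eμ-Myc against WT. The 7 windows of the set with an E-box came from 5 genes, because overlapping windows of Mrpl2 held the same E-box. The ETS motif was in 34.7% of the windows, against 17.5% of all. The YY1 motif was in 17.3%, against 7.13% of all, and the NRF1 motif in 10.7%, against 5.16% of all. The ETS and YY1 motifs can share letters, which happened in 0 of the genes, and the shares were not tested. The 5 genes with an E-box in their window are shown for the sequence around it, 30 bases each on GRCm38.p6, with the E-box in capitals. They were chosen after their values were seen.
Mrpl37, chr4:107067011-107067040, minus strand: agcaagtttcttCACGTGtggcacttcaga
Mrpl20, chr4:155802833-155802862, plus strand: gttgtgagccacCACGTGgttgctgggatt
Mrps18c, chr5:100798584-100798613, plus strand: gcagccccgggtCACGTGacttccggcccg
Mrpl36, chr13:73330954-73330983, plus strand: cacacgtcatccCACGTGaccttacgccat
Mrpl2, chr17:46646078-46646107, plus strand: actgccgcccgtCACGTGacccgagcaacc

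The E-box began 162 bases upstream of the start used for the window in Mrpl37, 33 in Mrpl20, 163 in Mrps18c, 43 in Mrpl36 and 131 in Mrpl2. In Mrpl36 and Mrpl2 that start lies inside the gene span, chr13:73328503-73332178 and chr17:46646172-46650132. Mrpl2 had windows from several starts, and its distance is to the start farthest upstream. In Eμ-Myc against WT Mrpl37, Mrpl20, Mrps18c, Mrpl36 and Mrpl2 had log2 fold changes of 1.07, 1.22, 0.83, 1.20 and 1.16 in that order. Their median was 1.16, and that of the 64 genes whose windows held no E-box was 0.93. The 26 genes with an ETS motif had a median of 0.93 and the 43 without one 0.97. For the NRF1 motif these medians were 0.78 in 8 genes and 0.96 in 61. For the YY1 motif they were 1.07 in 13 genes and 0.93 in 56. The differences between these medians were not tested.

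The values are the mean coverage per base of each gene as deposited, divided by 1 scaling factor per library, and are called scaled coverage. Because they are per base, levels are set side by side between genes. Which bases of each gene were averaged is not given in the sources used here. The summed coverage of a library ran from 1277305.5 to 1885768.9, and the read depth behind it is unknown. The targeted gene, Prps2, was at 16.1 to 17.9 in the knockout libraries, below the 102 to 141 of WT and the 197 to 293 of Eμ-Myc, as the labels have it. Myc was at 233 to 348 without the transgene, while with it the range was 1544 to 2276 in Eμ-Myc and 1073 to 3315 in the knockout. Markers of other cells were present in all groups. None of the 8 B-cell, 10 T-cell, 7 NK-cell or 10 myeloid markers was at 0 in any library. The summed B-cell markers ran from 16002 to 26157 in WT and from 14170 to 18703 in Eμ-Myc, and knockout libraries had 10638 to 15869. The summed T-cell markers ran from 862 to 4862 in WT and from 210 to 280 in Eμ-Myc. In the knockout group they were at 1021 and 1150 in libraries 1 and 2 and at 72.4 and 70.4 in libraries 3 and 4. In bulk RNA, fewer cells of a type and less RNA per cell cannot be told apart.

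In Eμ-Myc against WT the mitochondrial ribosomal protein genes rose almost as a whole. Of the 78 genes 75 were higher in Eμ-Myc and none was lower, in limma's test with Benjamini-Hochberg adjustment over all 12704 genes tested (adjusted p under 0.05). The background for this count is that 55.6% of all genes tested were called, 29.0% as higher and 26.7% as lower. The median log2 fold change of the 78 was 0.96, a ratio of 1.94, and the middle of their distribution ran from 0.78 to 1.10, while the median of all genes tested was -0.04. All 78 log2 fold changes were above 0, against 47.8% of all genes tested, and 76 had an unadjusted p under 0.05, against 61.4%. In 72 of the 78 every Eμ-Myc library lay above every WT library, which was so for 27.0% of all genes tested. In 29 of the 78 the called increase was at least 1 on the log2 scale, which held for 11.6% of all genes tested. The Mrpl genes had a median of 0.96 with 47 of 49 called, and the Mrps genes a median of 0.95 with 28 of 29 called.

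**Figure D1:**
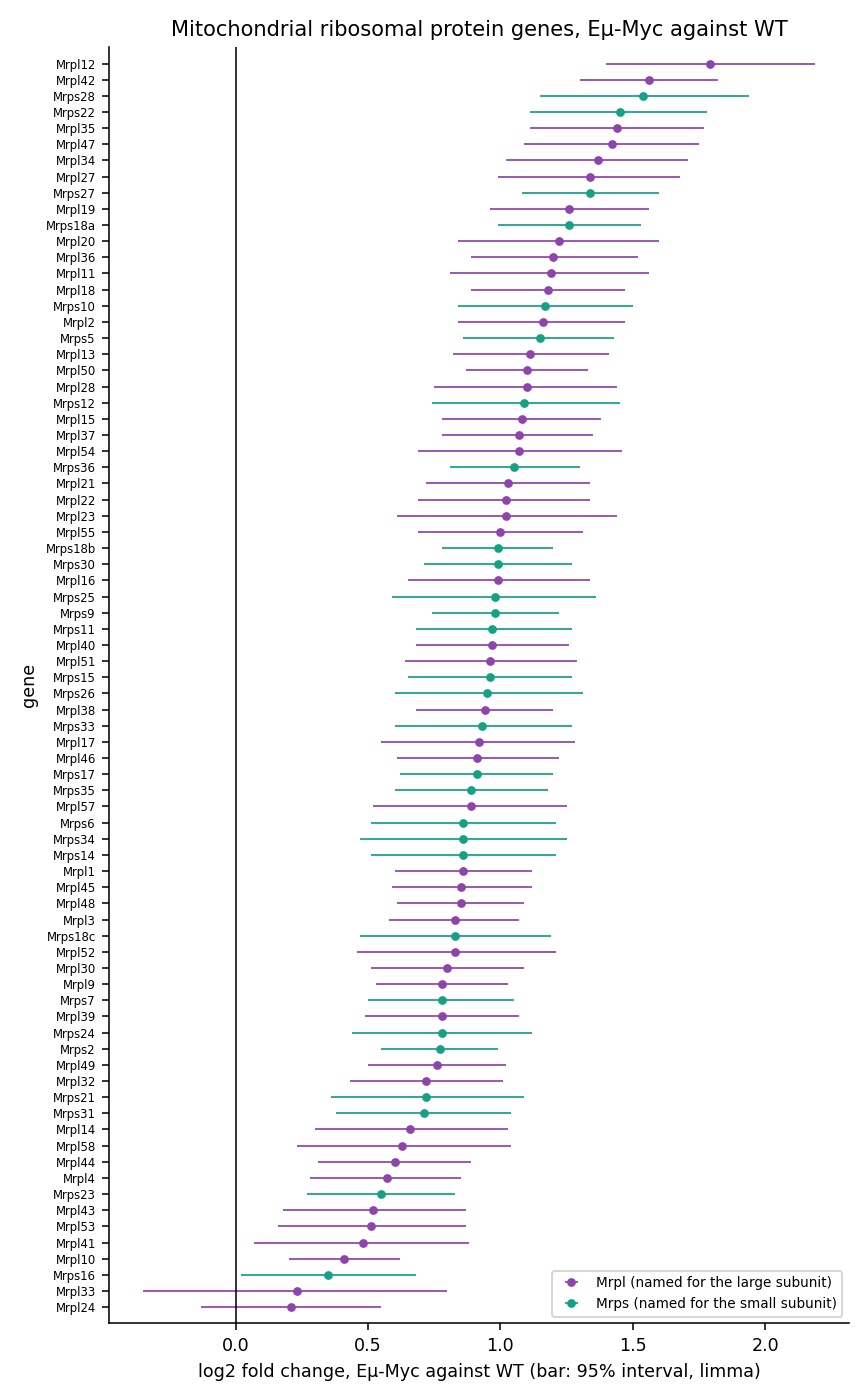
Log2 fold change of each of the 78 genes in Eμ-Myc against WT (x axis, on the log2(scaled coverage + 0.5) scale) with its 95% interval from limma (bars), 4 libraries per group, ordered by size with 1 gene per line. The values run from 0.21 for Mrpl24 to 1.79 for Mrpl12, and the intervals of Mrpl24 and Mrpl33 cross 0.

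The difference is also seen in the share of each library's coverage that the 78 genes took. That share was 0.466%, 0.533%, 0.479% and 0.490% in WT libraries 1 to 4. It was 0.722%, 0.912%, 0.845% and 0.860% in Eμ-Myc libraries 1 to 4. The groups did not overlap, with means of 0.492% ± 0.0290 for WT and 0.835% ± 0.0805 for Eμ-Myc (SD over 4 libraries), a description with no test. Eμ-Myc library 1 was the lowest of its group in 77 of the 78 genes and library 2 the highest in 59. The Myc transcript did not follow that order: it was at 1778 in library 1, 1544 in library 2, 2276 in library 3 and 2019 in library 4. The summed T-cell markers were lower in every Eμ-Myc library than in every WT library, and all 10 were called lower, with a median log2 fold change of -3.04. All 7 NK-cell markers were called lower as well, and when all 12 libraries were fitted together 5 T-cell and 1 NK-cell markers were called. Of 4 platelet markers tested 1, Itga2b, was called lower, with a median of -1.03, but 4 were without WT library 4 and 0 without WT library 2 or 3 or any 1 Eμ-Myc library. Of 6 plasma cell markers 1 was called higher and 2 lower, and with WT library 1 or 2 or Eμ-Myc library 1, 3 or 4 left out 1 was called lower. None of the 10 myeloid markers was called in limma (1 at an unadjusted p under 0.05; without WT library 1, 2 were called higher, and without Eμ-Myc library 2, 1 was called lower), and of the 8 B-cell markers 2, Cd22 and Cd74, were called lower. In the fit of all 12 libraries 1 B-cell marker was called lower, and 0 platelet and 0 plasma cell markers were called. Of 10 erythroid markers 0 were called in limma, with a median log2 fold change of 0.05. Up to 2 of them were called higher with 1 library left out. With the replicate number as a block 1 was, and with limma's library quality weights 8 were. Of all genes tested in the main fit, 29.0% were called higher and 26.7% lower, and the 2 of 8 B-cell markers lie near the latter share. The part of cells other than B cells in the rise of the ribosomal protein genes was not tested.

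**Figure D2:**
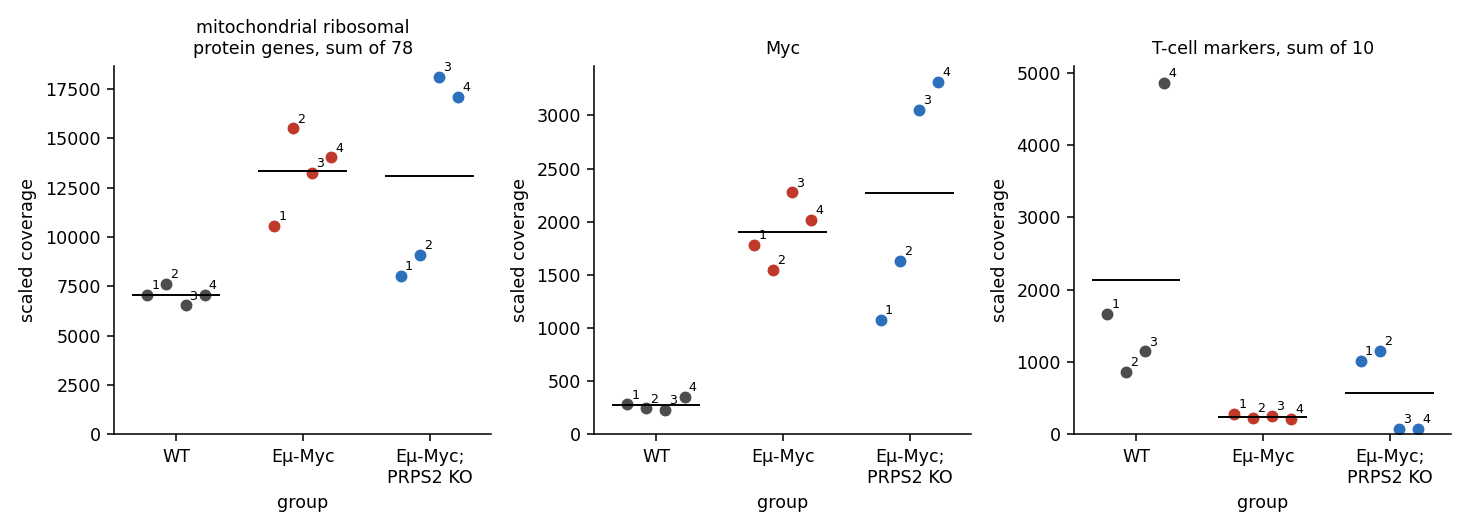
Summed scaled coverage of the 78 genes (left), scaled coverage of Myc (middle) and summed scaled coverage of 10 T-cell markers (right) in each library, with the replicate number beside each point and the group mean as a bar. The 78 genes sum to 6535 to 7622 in WT and 10545 to 15508 in Eμ-Myc, and the knockout libraries fall at 8036, 9110, 18114 and 17087.

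The largest increase was that of Mrpl12, at chr11:120484637-120488754, which encodes the protein of the flexible stalk that calls translation factors to the large subunit. Its scaled coverage was 96.3, 124, 109 and 107 in WT libraries 1 to 4, and 257, 432, 422 and 434 in Eμ-Myc libraries 1 to 4. The lowest Eμ-Myc library was above the highest WT library, and library 1 stood below the other three. The log2 fold change was 1.79 with a standard error of 0.18, and limma's adjusted p was 4.22e-05. The stalk base proteins had smaller changes of different size. Mrpl11 went from 21.0 ± 2.64 to 49.0 ± 10.1 (mean ± SD, n = 4 each), a log2 fold change of 1.19. Mrpl10 went from 208 ± 10.8 to 277 ± 21.6, a log2 fold change of 0.41 and the smallest increase that was called.

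Mrpl42, a protein specific to mitochondria, lies at chr10:95480805-95501949 and was among the most highly covered of the 78 genes. It was at 262, 259, 236 and 250 in WT and at 603, 820, 775 and 803 in Eμ-Myc. The WT libraries were close together and all Eμ-Myc libraries lay far above them. Its log2 fold change was 1.56 with a standard error of 0.12 (limma, adjusted p 8.78e-06). Mrps28, of the small subunit, was at 32.2, 43.5, 31.7 and 32.0 in WT and at 72.5, 120, 111 and 109 in Eμ-Myc, with a log2 fold change of 1.54. WT library 2 stood above the other WT libraries and still below every Eμ-Myc library. Mrps22, a small subunit protein specific to mitochondria, was at 24.8, 28.0, 31.5 and 25.1 in WT and at 59.2, 69.9, 85.5 and 89.3 in Eμ-Myc, with a log2 fold change of 1.45. Mrpl35, a large subunit protein, was covered at a much lower level, 11.6 to 12.4 in WT and 25.3 to 38.0 in Eμ-Myc, and its log2 fold change was 1.44.

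Mrpl2, Mrpl3 and Mrpl16 lie in the large subunit near the site where amino acids are joined. Mrpl2 went from 126 ± 10.3 in WT to 286 ± 55.1 in Eμ-Myc, Mrpl3 from 100 ± 11.0 to 178 ± 13.9 and Mrpl16 from 51.0 ± 9.48 to 101 ± 13.3. Their log2 fold changes were 1.16, 0.83 and 0.99, and all were called. Mrpl18, in the central protuberance of the large subunit, rose with a log2 fold change of 1.18. Mrpl45, which anchors the ribosome at the inner membrane by the tunnel exit, rose by 0.85 on the log2 scale. Mrpl44, a protein with a ribonuclease III fold, rose by 0.60.

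Among small subunit proteins, Mrps12, of the decoding centre, went from 142 ± 14.8 in WT to 308 ± 62.8 in Eμ-Myc, with a log2 fold change of 1.09. Mrps5, on the side where mRNA enters, went from 38.9 ± 5.81 to 86.4 ± 7.88, with 1.15. Mrps7, in the head of the subunit, had a log2 fold change of 0.78 and Mrps2 one of 0.77. Mrps27, a pentatricopeptide repeat protein, had 1.34. All 5 were called.

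The symbol does not always give the place of the protein. Mrps30 and Mrps18a sit in the large subunit in spite of their names, and had log2 fold changes of 0.99 and 1.26. Mrps36 is now known as part of the 2-oxoglutarate dehydrogenase complex of the citric acid cycle rather than of the ribosome, and it rose by 1.05 on the log2 scale, from 50.7 ± 2.23 to 106 ± 12.9. All 3 were called.

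Mrps18a, Mrps18b and Mrps18c descend from 1 bacterial protein, S18. Mrps18a was at 56.7, 58.0, 54.1 and 52.0 in WT and at 107, 154, 132 and 142 in Eμ-Myc. Mrps18b was at 133, 142, 135 and 146 in WT and at 249, 306, 284 and 274 in Eμ-Myc. Mrps18c was at 134, 134, 122 and 108 in WT and at 163, 276, 229 and 230 in Eμ-Myc. All 3 were called, with groups that did not overlap and with log2 fold changes of 1.26 ± 0.12, 0.99 ± 0.09 and 0.83 ± 0.16 (SE). The differences between the 3 were not tested. In the GENCODE annotation 30.5% of the exon bases of Mrps18b and 23.2% of those of Mrps18c are shared with another gene model, and none of those of Mrps18a.

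**Figure D3:**
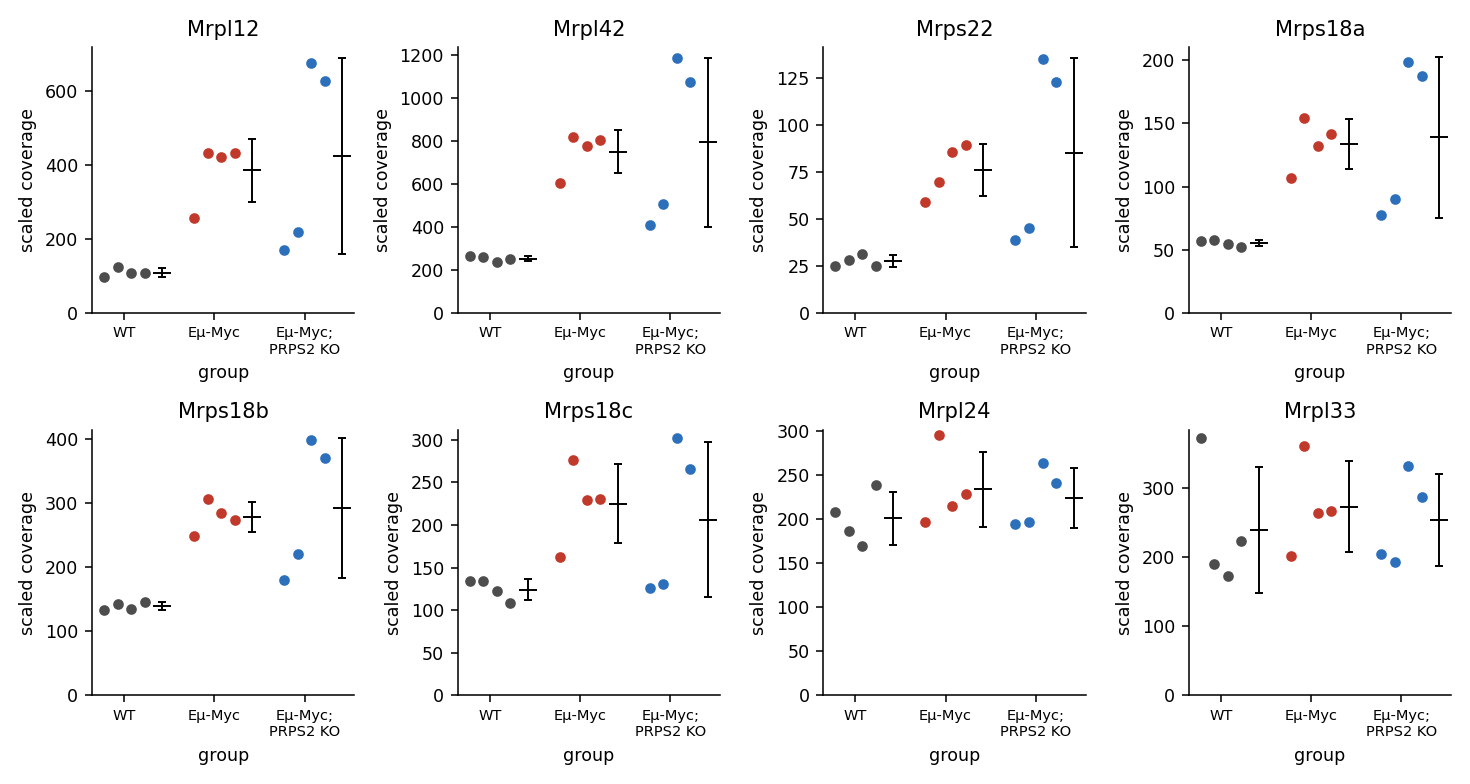
Scaled coverage of 8 genes in each library (points, replicates 1 to 4 from left to right within a group) with the mean and SD of each group of 4 (bars). Mrpl12, Mrpl42, Mrps22 and the 3 S18 genes have no overlap between WT and Eμ-Myc, Mrpl24 and Mrpl33 overlap, and the knockout libraries split in each gene into a lower and a higher pair.

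The 3 genes that were not called were Mrpl24, Mrpl33 and Mrps16, all of which have bacterial counterparts. Mrpl24, at chr3:87918131-87923450, was at 208, 187, 170 and 239 in WT and at 197, 295, 215 and 229 in Eμ-Myc, so the groups overlapped. Its log2 fold change was 0.21, with an interval from -0.13 to 0.55 and an adjusted p of 0.252 in limma. Of its exon bases in GENCODE 26.3% are shared with Rrnad1 on the opposite strand, and whether the deposited coverage separates strands is not stated. Larger shares on the opposite strand occur in called genes, with 69.8% in Mrps25 and 63.4% in Mrps34. The other uncalled genes share 3.56% in Mrpl33 and 0 in Mrps16, and the part of such sharing was not tested. Mrpl33, at chr5:31613951-31622644, was at 373, 190, 172 and 223 in WT and at 201, 361, 264 and 267 in Eμ-Myc. WT library 1 held the highest value of all 12 libraries. The log2 fold change was 0.23 with an interval from -0.35 to 0.80, and without 1 library in turn it ran from 0.08 to 0.46, with adjusted p from 0.0715 to 0.806. Mrps16, at chr14:20391222-20393634, was at 159, 214, 167 and 178 in WT and at 182, 276, 219 and 241 in Eμ-Myc, with a log2 fold change of 0.35 and an adjusted p of 0.0665. Without WT library 2 its adjusted p was 0.0362, and without Eμ-Myc library 1 it was 0.0204. Mrpl41 was called with an adjusted p of 0.0461 and a log2 fold change of 0.48, and its adjusted p reached 0.109 when 1 library was left out. Its call was lost without WT library 1, 3 or 4 or Eμ-Myc library 2, 3 or 4.

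Levels differed far more between the genes than between the groups, with a 57.3-fold range of the mean over all 12 libraries. By that mean the highest were Mrps17, Mrpl42 and Mrps23. In WT alone Mrpl30, at a mean of 328, and Mrps21, at 299, were above Mrpl42, at 252. Mrps17 was at 388 to 465 in WT and 652 to 954 in Eμ-Myc, and Mrps23 at 396 to 465 and 493 to 713, with log2 fold changes of 0.91 and 0.55. The lowest by the mean over all 12 libraries were Mrps25, Mrpl17 and Mrpl41. In WT alone Mrpl35, Mrpl19, Mrpl1 and Mrpl11, at means of 12.1, 15.5, 17.9 and 21.0, were below Mrpl41, at 21.4. Mrps25 was at 5.86 to 7.33 in WT and 11.0 to 17.1 in Eμ-Myc, and Mrpl17 at 10.2 ± 1.40 and 19.9 ± 3.21 (mean ± SD, n = 4), with log2 fold changes of 0.98 and 0.92. In Mrpl41 the WT libraries had 18.4, 25.6, 21.2 and 20.6 and the Eμ-Myc libraries 21.2, 36.4, 31.5 and 32.4, so that the groups overlapped.

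Splits of the 78 genes by other features were made after values were seen and are descriptions. Genes whose proteins have a bacterial counterpart had a median log2 fold change of 0.99, with 43 of 46 called. Those without one had a median of 0.92, with 32 of 32 called. The genes lie on 17 chromosomes, and 18 of them, 23.1%, start up to 1000 bases from a protein-coding gene of the opposite strand that runs away from them without overlapping them in GENCODE, against 10.7% of the 11803 protein-coding genes tested. Mrpl46 and Mrps11, which face away from each other and overlap at their starts in that annotation, are not among the 18. The 18 had a median of 0.97 and the other 60 a median of 0.95. The 69 genes that share under 20% of their exon bases with another gene model had a median of 0.96, with 67 called. The annotation also holds 5 pseudogenes named after genes of the set, and how reads shared with such copies were counted is not given in the sources used here.

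Other genes of mitochondrial gene expression were counted by lists, to be read against the 29.0% of all genes tested that were called higher and the 26.7% called lower. Of 5 mitochondrial ribosome proteins that carry other symbols, all 5 were called higher, with a median log2 fold change of 1.03. Chchd1 had 1.27, Gadd45gip1 1.09, Ptcd3 1.03, Dap3 0.96 and Aurkaip1 0.64. Of 27 genes for assembly of the mitochondrial ribosome and modification of its RNA, 16, or 59.3%, were called higher and none lower, with a median of 0.41. The 3 with the smallest p were Noa1, a GTPase of small subunit assembly, with 1.22, Rcc1l with 1.03 and Fastkd2 with 1.05. Of the 27, 3 had a log2 fold change below 0. The count of 16 fell to 9 without WT library 3, to 10 without Eμ-Myc library 4 and to 7 when all 12 libraries were fitted together. The difference between these lists and the 78 genes was not tested.

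Of 15 factors of mitochondrial translation 9, or 60.0%, were called higher and none lower, against 29.0% and 26.7% of all genes tested, with a median log2 fold change of 0.49. Tufm, Tsfm and Gfm1 had the smallest p of the 15, and 1 of the 15 had a log2 fold change below 0. Tufm and Tsfm, the elongation factor that brings transfer RNA and its exchange factor, had 1.19 and 1.30. Gfm1, which moves the ribosome along, had 0.99. Of 12 genes for maintenance and transcription of mitochondrial DNA, 6 were called higher and 1, Mterf1a, lower at -0.42 (limma, adjusted p 0.0342). The call of Mterf1a was lost without WT library 1, 2 or 3 or Eμ-Myc library 1, 3 or 4, with adjusted p up to 0.0985, and with scaling over all genes, where it was 0.0557. Twnk, Mgme1 and Ssbp1 had the smallest p of the 12, and 2 of the 12 had a log2 fold change below 0. Twnk, the helicase, had 1.24, Mgme1, an exonuclease, 1.09 and Ssbp1, which coats single strands, 0.68. Twnk shares exon bases with Mrpl43 on the opposite strand, 33.4% of those of Mrpl43. Of 8 nuclear regulators of mitochondrial genes 3, or 37.5%, were called higher and 2 lower, shares near those of all genes tested. Those with the smallest p were Pprc1 with 0.58, Esrra with -0.60 and Ppargc1a, a coactivator of mitochondrial biogenesis, with -0.82. Ppargc1a was near the filter minimum of 1, at 1.63 to 2.23 in WT and 0.721 to 1.26 in Eμ-Myc. The count of 3 called higher fell to 1 without WT library 3 or Eμ-Myc library 3 or 4. It was also 1 when all 12 libraries were fitted together. The cytosolic ribosomal protein genes were a list chosen after values were seen. Of 80 tested, 58 were called higher and 1 lower, with a median log2 fold change of 0.45. That count of 58 ran from 41 to 77 with 1 library left out, and was 43 when all 12 libraries were fitted together.

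In the knockout against Eμ-Myc none of the 78 genes was called in limma's test, and none had an unadjusted p under 0.05, the lowest being 0.213. The background in this comparison is 1 gene called of 12531, or 0.00798%, and 0.950% of genes had an unadjusted p under 0.05. The 78 genes had log2 fold changes from -0.31 to 0.11 with a median of -0.09, and the median of all genes tested was -0.04. Of the 78, 6 were above 0, against 41.1% of all genes tested, and with median-of-ratios scaling 17 were. In none of the 78 were the groups apart, which was so for 1.51% of all genes tested. This does not show that the groups were alike, because the knockout libraries spread widely: the median standard error was 0.31 on the log2 scale, and the interval of Mrpl12, for example, ran from -1.18 to 1.01. With limma's library quality weights 68 of the 78 were called, all as higher in the knockout, with a median of 0.41, in a fit that also called 7558 genes in all.

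The 5 genes with the smallest p were Mrpl43, Mrps33, Mrpl27, Mrps36 and Mrps34, with log2 fold changes of -0.26, -0.25, -0.31, -0.22 and -0.18 and adjusted p of 1.000 each in limma. Mrpl27, a large subunit protein with a bacterial counterpart, was at 73.2, 109, 95.8 and 101 in Eμ-Myc and at 46.5, 47.6, 122 and 120 in the knockout. Mrpl43, of the large subunit, was at 110, 161, 115 and 126 in Eμ-Myc and at 84.0, 91.5, 131 and 123 in the knockout. In both genes knockout libraries 1 and 2 lay below every Eμ-Myc library, and libraries 3 and 4 did not.

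That division ran through the whole set. In all 78 genes knockout libraries 3 and 4 both lay above libraries 1 and 2. The same order held for 49.4% of the 12531 genes tested in the knockout against Eμ-Myc, and the opposite order for 38.5%, so the division was not limited to the 78 genes. Library 1 was below the lowest Eμ-Myc library in 77 genes and library 2 in 78, while library 3 was above the highest Eμ-Myc library in 68 genes and library 4 in 63. Over all genes tested these shares were 38.6%, 35.8%, 39.1% and 38.5% in that order. The median gene differed from its WT mean by 0.23, 0.43, 1.41 and 1.35 on the log2 scale in knockout libraries 1 to 4, and by 0.64, 1.15, 0.92 and 1.02 in Eμ-Myc libraries 1 to 4. Mrpl12 shows the pattern, with 170, 220, 678 and 629 in knockout libraries 1 to 4, and so does Mrpl42 with 407, 508, 1186 and 1075. The median coefficient of variation over the 78 genes was 42.1% in the knockout, against 10.7% in WT and 16.1% in Eμ-Myc. For the summed coverage of the 78 genes the knockout mean of 13087 lay between the pairs, at no library's value.

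**Figure D4:**
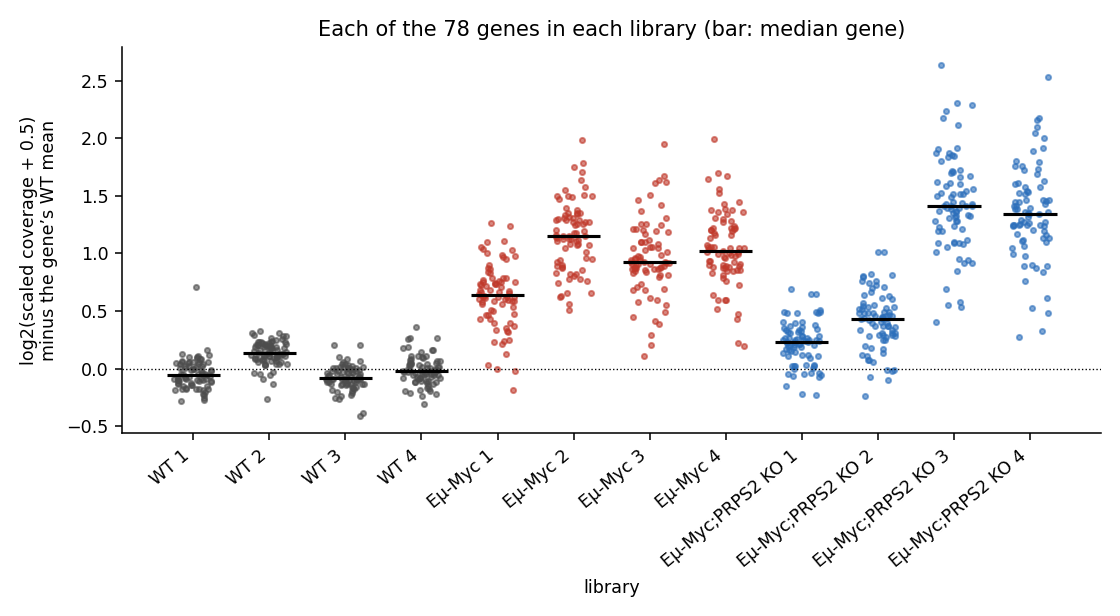
Difference of each of the 78 genes (points, spread sideways for legibility) from its own WT mean in each library, on the log2(scaled coverage + 0.5) scale, with the median gene of each library as a bar. The median lies between -0.08 and 0.13 in WT and between 0.64 and 1.15 in Eμ-Myc, and at 0.23, 0.43, 1.41 and 1.35 in knockout libraries 1 to 4.

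Other values moved with this division. Myc was at 1073, 1630, 3050 and 3315 in knockout libraries 1 to 4. Prps2 did not divide in that way, at 17.9, 16.1, 17.3 and 16.4. The summed T-cell markers were at 1021, 1150, 72.4 and 70.4, the summed NK-cell markers at 564, 420, 25.7 and 22.4, and the summed myeloid markers at 15448, 11174, 3166 and 1469. In each of these 3 lists every marker, 10 of 10, 7 of 7 and 10 of 10, was higher in both of libraries 1 and 2 than in libraries 3 and 4. The B-cell markers did not divide as a class: the 7 other than Cd74 summed to 6973, 7222, 7130 and 7431. Cd74 was at 8896, 8286, 3508 and 3607, and of the 8 markers 3 were higher in both of libraries 1 and 2, and 4 were lower in both. Of 6 plasma cell markers 4 were higher in both, with Jchain at 179, 222, 2.02 and 2.47, and 2 were lower. Libraries 1 and 2, which had the lower ribosomal protein values, thus had lower Myc and higher T-cell, NK-cell and myeloid markers. The erythroid sum went the other way, at 168, 141, 212 and 217, and the platelet sum, at 124, 30.6, 33.9 and 39.1, was high in library 1 alone. The part of any of these in the result was not tested.

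In the knockout against WT 34 of the 78 genes were called higher and none lower, against a background of 29.3% of 12665 genes called, 15.8% as higher and 13.5% as lower. An unadjusted p under 0.05 was found in 62 of the 78, against 50.1% of all genes tested. This comparison shares its WT libraries with that of Eμ-Myc against WT. The median log2 fold change was 0.85, a ratio of 1.81, with a range from 0.12 to 1.71, and the median of all genes tested was -0.06. In 46 genes every knockout library lay above every WT library, which was so for 19.0% of all genes tested, and 37.7% were apart in either direction. Against the highest WT library, knockout library 1 lay above in 47 genes, library 2 in 66, and libraries 3 and 4 in 77 each. The count of calls rested on single libraries, with none called when any 1 WT library or knockout library 3 or 4 was left out, 70 without knockout library 1 and 52 without library 2. The median kept its sign in these 8 fits, between 0.66 and 1.05. Markers of other cells differed in this comparison too. All 4 platelet markers tested were called lower, with a median log2 fold change of -2.13 and adjusted p from 0.0335 to 0.0431 in limma, a count that fell to 0 without WT library 1, 2 or 3 or knockout library 3 or 4 and to 1 without knockout library 2. The T-cell and NK-cell markers had medians of -3.16 and -2.56, with 0 of 10 and 0 of 7 called and 6 and 3 at an unadjusted p under 0.05 in limma. Without knockout library 1, 9 of the T-cell and 6 of the NK-cell markers were called lower, and with all 12 libraries in one fit 8 and 3 were. Of 8 B-cell markers 1, Cd22, was called lower in limma (adjusted p 0.0397). That count ran from 0 to 2 with 1 library left out and was 2 in the fit of all 12. The 10 myeloid markers had a median of -1.09 with 0 called, and up to 1 called lower with 1 library left out. The part of these markers in the result was not tested.

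The 5 genes with the largest increases in Eμ-Myc against WT are given here for the knockout against the same WT libraries. Mrpl12 had a log2 fold change of 1.71 with a standard error of 0.45 and an adjusted p of 0.0337 in limma, and Mrpl42 one of 1.51 with 0.34 and 0.0252. Mrps28, Mrps22 and Mrpl35 had 1.49, 1.41 and 1.38, with groups that did not overlap. The calls of all 5 were lost when any 1 WT library or knockout library 3 or 4 was left out, with adjusted p for Mrpl12 up to 0.0906. Mrps18a and Mrps18b were called, with 1.20 and 0.99, and Mrps18c, at 126, 131, 302 and 266 in the knockout, was not, with 0.62 and an adjusted p of 0.132. Mrpl24, Mrpl33 and Mrps16 were not called here either, with log2 fold changes of 0.15, 0.12 and 0.20.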

How the data were processed

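The authors deposited, per the labels, a separate file for each library, and its values are the mean coverage per gene, a signal kept to 1 decimal; 91.6% of those above 0 were not whole. The submitters' processing notes name mm10, DESeq and R 4.3.3; the aligner, the counting and the use of strand are not given in the sources used here, and depth is unknown, so precision comes from the spread between libraries.

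Libraries were scaled by unweighted trimmed means of log ratios (trimming 30% of the ratios and 5% of the mean values from either end) over genes with a mean coverage of at least 1. That minimum and a geometric centring of the factors were adopted after the first fits had been seen; over all genes the count in the knockout against WT was 50 instead of 34. For each comparison the log2(scaled coverage + 0.5) of its 8 libraries went into limma 3.58.1 (R 4.3.3) with trend and robust empirical Bayes. Genes entered that reached a scaled coverage of 1 in 4 or more of the 8 libraries. The method was run on simulated data with independent normal values for each gene and library. Such data do not hold the division of the knockout libraries, so the simulation does not cover it. Tests were two-sided, with Benjamini-Hochberg adjustment over all genes tested and a threshold of 0.05. Fold changes on this scale understate those of low genes. Tables and plots used Python 3.11.15, numpy 2.4.6, pandas 2.3.3 and matplotlib 3.10.9. Gene positions and promoters came from RefSeq, and shared exon bases and neighbouring starts from GENCODE, both on GRCm38.

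The genes and lists were chosen with earlier results of these data known. Genes were named by a rule: 20 with a known place or role; the 5 largest increases; those not called; the 5 with the smallest p in the knockout against Eμ-Myc; the 3 highest and 3 lowest levels; and 3 of each list of mitochondrial gene expression. The 3 of each list were those with the smallest p in Eμ-Myc against WT, so they do not stand for their list. Other genes named were chosen after their values were seen, as were the splits of the 78 genes and the cytosolic list. The erythroid, platelet and plasma cell lists summed to 133 to 1420, 30.6 to 379 and 248 to 754 over the libraries.

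Between the knockout and Eμ-Myc, the deviations of libraries with the same number correlated across genes (r of 0.641, 0.188, 0.243 and 0.598), all over 0.1, so these numbers were treated as pairs, from the values alone, in a blocked alternative; with WT they did not pair. The values reported for the comparisons come from fits without the block, whose effect is given with the alternatives, and in the knockout against Eμ-Myc the block changed no call of the 78 genes.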

Additional observations from a re-analysis of the deposited data

Results flagged for a closer look

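Among 37 quantities checked in 3 groups each, 111 tests in all, 3 had a library that stood apart from the others of its group, and chance gives about 1 in 20. In Mrpl12 Eμ-Myc library 1, at 257, lay below the other three, at 422 to 434, a gap of 0.934 of the group's range. In Mrps28 WT library 2, at 43.5, lay above the others, at 31.7 to 32.2, a gap of 0.955 of the range. In Mrps23 WT library 2, at 465, lay above the others, at 396 to 406, a gap of 0.856 of the range.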

How the results depend on the processing

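In Eμ-Myc against WT the count of called genes ran from 73 to 76 and the median from 0.86 to 1.05 when 1 library was left out. A single fit of all 12 libraries called 70, losing Mrpl14, Mrpl41, Mrpl53, Mrpl58 and Mrps31. The 31 named genes were recomputed under each alternative in which they were tested. Of the recomputed values 569 kept their direction and side of the threshold. A call was lost in 11, all of Mrpl41, with limma's adjusted p up to 0.184. A call was gained in 7, 5 of Mrps16 and 1 each of Mrpl24 and Mrpl33. Scaling by total coverage moved the median of all genes from -0.04 to -0.19 and that of the 78 from 0.96 to 0.81, with all 78 above 0; the share of called genes that were higher went from 52.1% to 42.0%. In the knockout against Eμ-Myc the count stayed at 0 and the median ran from -0.29 to 0.10 without 1 library; with library quality weights it was 68 and 0.41, and Mrpl43, Mrps33, Mrpl27, Mrps36 and Mrps34 turned to 0.08, 0.24, 0.34, 0.18 and 0.26. In the knockout against WT the count ran from 0 to 70 and the median from 0.66 to 1.05 without 1 library. That count was 17 with no filter on low values and 61 with all 12 libraries in one fit. With quality weights 78 were called with a median of 1.30, in a fit that called 10520 genes in all, 49.6% of them higher. The main fit called 3709 genes. Scaling over all genes moved the share of called genes that were higher from 54.0% to 67.4%. The cause of these shifts was not tested. With the replicate block the counts were 76, 0 and 2 in the 3 comparisons, with medians of 0.96, -0.09 and 0.85; the numbers did not pair the libraries against WT, where r was 0.223, -0.0967, 0.249 and 0.128 for Eμ-Myc and 0.390, -0.412, 0.135 and -0.0617 for the knockout. The unknown read depth limits what can be said of low genes.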
